A study of Mus musculus with 13 samples.

Results

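The mitochondrial ribosomal protein genes were examined in the livers of mice treated with antisense oligonucleotides (ASOs). They were chosen by name, as the protein-coding genes of the deposited liver table whose symbol starts with Mrpl or Mrps followed by a digit. The rule found 76 of the 11779 listed genes. Of the 78 protein-coding genes of the GENCODE M21 annotation that match the same rule, Mrpl53 and Mrps36 are not among the listed genes. Mrps36 was named for the small subunit, but its product is now assigned to the 2-oxoglutarate dehydrogenase complex.

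The series holds 13 RNA-seq libraries in 4 groups. Of these, 6 came from whole liver of Balb/c mice on day 5, 3 from mice given a mix of 5 ASOs against the long non-coding RNA LL35 and 3 from mice given an ASO against firefly luciferase (Luc ASO). All liver ASOs carried N-acetylgalactosamine (GalNAc), which directs them to hepatocytes. For the LL35 livers the labels give 150 mg/kg for each ASO, while the methods give that dose as the total. No dose was recorded for the Luc livers. The paper's text gives 5 GalNAc conjugates against LL35, but its supplementary list for mice holds 4. Every liver analysed had received an ASO, so no untreated liver stands beside them, and age and sex were not given in the sources used here. The other libraries came from AML12, a mouse hepatocyte line, taken on day 2 after Luc ASO (3 libraries) or LL35 ASO (4 libraries), and were not analysed here. The value used for each gene was the authors' mean normalized count over the compared liver libraries, a single value with no spread. It is a level over both treatments together. The effect of LL35 knockdown on these genes is not reported here, because only the authors' own comparison holds it. The depth of each library is unknown.

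Mitochondria keep a ribosome of their own, related to that of bacteria, which makes only the few proteins encoded in mitochondrial DNA, all of them core subunits of oxidative phosphorylation. Its rRNAs are encoded in mitochondrial DNA, whereas its proteins are encoded in the nucleus, made in the cytosol and imported. Many of these proteins have a counterpart in bacteria, and others were gained in mitochondria. In hepatocytes, which are rich in mitochondria, this ribosome supplies the respiratory chain that burns fatty acids and powers urea and glucose synthesis.

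The nuclear genes of mitochondrial proteins share no single control sequence, but binding sites of NRF1, of ETS factors such as GABP, and of YY1 are known from many of their promoters. These sites were looked for in RefSeq promoters of the GRCm38.p6 build, from 250 bases before to 50 bases after the start of each gene. A promoter was held for 67 of the 76 genes. The windows below are printed to show where the motifs lie ahead of the start, 5′ to 3′ along the gene, with the motif in capitals. Only bases before the start are printed. The first 4 hold the NRF1 motif CGCATGCG. Mrpl10 forms the base of the stalk that binds translation factors, Mrpl22 lines the exit tunnel of the growing protein, and Mrpl32, matured by the m-AAA protease of the inner membrane, holds the motif 2 times.
Mrpl10, chr11:97041437-97041464, plus strand: cccagctccaCGCATGCGcatagcggcc
Mrpl22, chr11:58171622-58171649, plus strand: cctcggactgCGCATGCGtatagtcagc
Mrpl32, chr13:14613106-14613133, minus strand: ttgacccttgCGCATGCGcaagaggggc
Mrpl32, chr13:14613043-14613070, minus strand: gcggacttaaCGCATGCGctcagcccgc

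The ETS motif CCGGAAG was found in the promoters of Mrpl34, Mrpl3, Mrps22 and Mrps16 among others. Mrpl34 had one of the highest levels per length, Mrpl3 lies by the catalytic centre of the large subunit, and Mrps22 and Mrps16 are small-subunit proteins whose human counterparts are mutated in inherited defects of oxidative phosphorylation. In Mrps16 the motif was read from the opposite strand.
Mrpl34, chr8:71464879-71464905, plus strand: actacagctcCCGGAAGgccccgcggc
Mrpl3, chr9:105053239-105053265, plus strand: gagaaacggaCCGGAAGtggcccggct
Mrps22, chr9:98601680-98601700, minus strand: acctctcgagCCGGAAGttgc
Mrps16, chr14:20393548-20393574, minus strand: tgggggcgctCTTCCGGgcttcaggct

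The YY1 motif AAGATGGCG lay ahead of the start in 2 genes, Mrpl36 and Mrps11, both on the opposite strand.
Mrpl36, chr13:73330968-73330996, plus strand: cgtgaccttaCGCCATCTTtcttcctggc
Mrps11, chr7:78783013-78783041, plus strand: ctacgggcgcCGCCATCTTtctgtcttcc

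The livers expressed the mitochondrial ribosomal protein genes at moderate levels. The mean normalized count had a median of 195.1 over the 76 genes, with quartiles at 136.2 and 276.5. The lowest was 35.5 for Mrps33 and the highest 775.4 for Mrpl12, and 74 genes had a count of at least 50. These counts grow with the length of a gene as well as with its level. Together the 76 genes took 0.151% of all listed counts. The lowest count in the whole table was 15.6, so genes below that level are not represented. The rule by which genes were listed was not given in the sources used here, so absence alone does not show a low level. Undivided by length, the members' median count stood at percentile 44.33 of the listed protein-coding genes, and 24 members lay above the median of those genes.

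Levels of different genes were therefore set side by side per kilobase, that is, per 1000 bases, of the annotated exons of a gene merged, unless another length is named. On this scale the members had a median of 75.58 normalized counts per kilobase, beside 52.07 for all listed protein-coding genes. The median member stood at percentile 61.23, 53 of the 76 members lay above the median of all genes, 20 lay above their upper quartile and 5 below their lower quartile. The members are short genes, with a median of 2542 bases of merged exons against 4597 for the listed protein-coding genes, so division by length raised their rank from below to above the middle of the table. Per kilobase of the principal transcript, the isoform that the APPRIS annotation ranks first, the median was 130.6 against 81.27, percentile 64.41. Per kilobase of coding sequence it was 290.5 against 168.5, percentile 65.33. On all 3 length scales 42 members lay above the median of protein-coding genes, and only Mrps11, Mrps33 and Mrpl23 lay below it on all 3. These are descriptions of 1 table of pooled values, with no test.

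**Figure D1:**
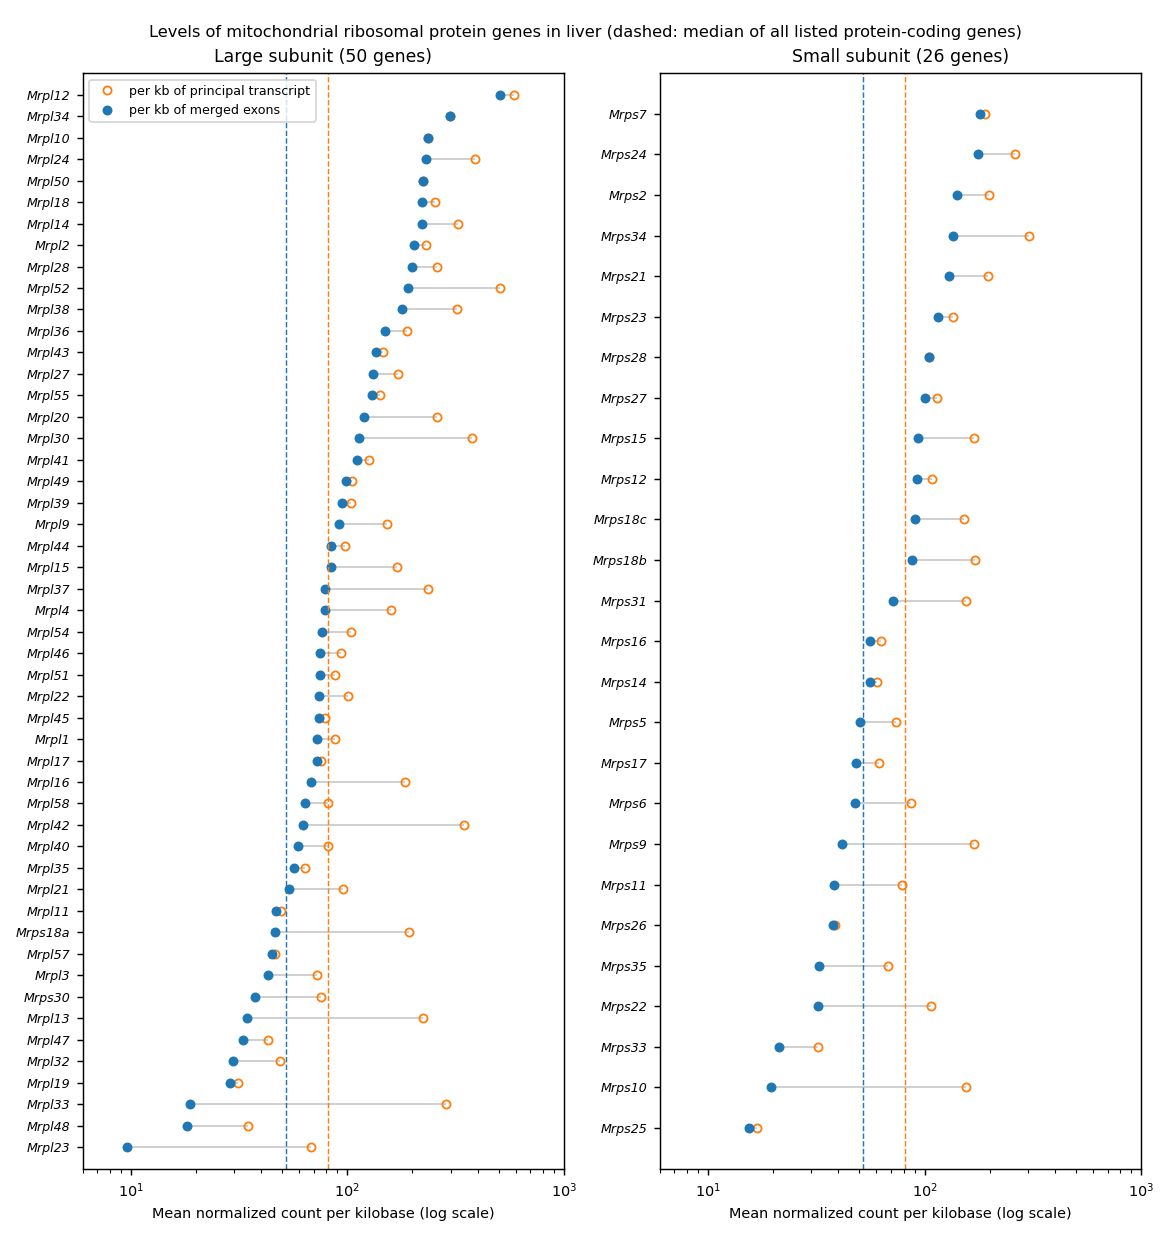
Authors' mean normalized count per kilobase (log scale) of each gene of the large subunit (left) and small subunit (right), per kilobase of merged exons (filled points) and of the principal transcript (open points), with grey lines joining the values of a gene. Dashed lines are the medians of all listed protein-coding genes, 52.07 and 81.27, and Mrpl12 lies highest on both scales at 506.1 and 589.2.

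In the large subunit, which joins amino acids and holds 50 of the members, the median was 77.42 per kilobase of merged exons. Mrpl12 was the highest at 506.1. It is the protein of the flexible stalk that recruits translation factors and is present there in several copies. Its stalk partner Mrpl10 was the third at 235.9, and Mrpl11, at the base of the same stalk, was far lower at 46.74. Mrpl34, a small bacterial-type protein within the rRNA, reached 297.9. Mrpl24, near the mouth of the exit tunnel, reached 231.4. The mitochondria-specific Mrpl50 stood at 224.1 and Mrpl18, which binds RNA in the central protuberance, at 221.7. The 6 highest genes of the large subunit thus spanned 221.7 to 506.1, and both ends of that span were bacterial-type proteins.

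The lowest levels of the large subunit were those of Mrpl23 at 9.594, Mrpl48 at 18.23, Mrpl33 at 18.73, Mrpl19 at 28.59, Mrpl32 at 29.71 and Mrpl47 at 32.89 per kilobase of merged exons. Mrpl23 and Mrpl47 sit around the exit of the tunnel, and Mrpl19 forms a bridge to the small subunit. Mrpl58, a peptidyl-tRNA hydrolase built into the large subunit, stood at 63.53. Mrpl44, which has a fold related to RNase III, stood at 84.37, and Mrpl3 at 43.06. Mrps30, named for the small subunit but placed in the large one by structures, stood at 37.65. Proteins that occupy neighbouring sites of the same particle could thus have transcripts at very different levels on this scale, as with Mrpl24 and Mrpl23 at the tunnel exit. Per kilobase of the principal transcript this pair lay closer, at 389.7 and 67.70. The value of Mrpl23 rests on a count of 46.85, and a pseudogene is named after it.

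In the small subunit, which reads the mRNA and holds 26 of the members, the median was 63.83 per kilobase of merged exons. Mrps7, a protein of the head that binds rRNA early in assembly, was the highest at 181.0. Mrps24, at the entry of the mRNA channel, stood at 176.7, Mrps2 at 141.4, Mrps34 at 134.8, Mrps21 at 129.9 and Mrps23 at 115.2. Mrps12, the protein of the decoding centre, was intermediate at 92.29, and Mrps16 stood at 56.09. The lowest were Mrps25 at 15.54, Mrps10 at 19.55, Mrps33 at 21.30, Mrps22 at 32.17, Mrps35 at 32.55 and Mrps26 at 37.90. Of these 6, all but Mrps10 are mitochondria-specific.

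The median of the large subunit was 1.21 times that of the small subunit, and the ratio lay between 1.05 and 1.41 over the other settings tried. The small subunit, from 15.54 to 181.0, lay within the range of the large one, from 9.594 to 506.1. Members with a counterpart in bacteria, 48 genes, had a median of 81.39 per kilobase, and the 28 mitochondria-specific members one of 74.82, a ratio of 1.09. With the principal transcript as length the ratio was 1.58. Within the small subunit the 9 mitochondria-specific members had a median of 37.90 and the 17 bacterial-type members one of 87.89, whereas in the large subunit the medians were 76.24 for 19 genes and 78.60 for 31 genes. With the principal transcript the medians of the small subunit were 107.3 and 151.8, and with coding length 204.5 and 255.4. Those of the large subunit were 104.1 and 171.1, and 278.5 and 331.7, so on these scales the gap was not confined to the small subunit. Undivided by length the order was turned in the small subunit, with median counts of 179.7 for its mitochondria-specific and 161.3 for its bacterial-type members. It was also turned over all members, with 198.4 and 191.3, but not in the large subunit, with 205.5 and 210.3. No spread between mice stands behind these ratios, and the genes are not replicates.

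The gene family Mrps18 has 3 members in the mouse, each of which takes a different place in the ribosome. Mrps18c, the direct counterpart of the bacterial protein, stood at 89.98 per kilobase of merged exons, Mrps18b, in another site of the small subunit, at 87.89, and Mrps18a, in the large subunit, at 46.15. Per kilobase of the principal transcript the order was turned, with 192.6 for Mrps18a, 170.2 for Mrps18b and 151.8 for Mrps18c. The paralogs thus had no order that held on both scales.

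The length used decided the rank of several genes. Mrpl33 had 7326 bases of merged exons and a principal transcript of 478 bases, so that its level was 18.73 per kilobase on the first scale and 287.1 on the second, from percentile 22.48 to 82.55. In all 7 genes, namely Mrpl13, Mrpl23, Mrpl33, Mrpl42, Mrps9, Mrps10 and Mrps18a, moved by more than 25 points of percentile between the 2 scales. Mrps10 went from 19.55 to 155.2 per kilobase and Mrpl23 from 9.594 to 67.70. Which transcripts these livers used cannot be read from counts per gene. Mrpl12 stayed at rank 1 on all 3 length scales, with 1286 per kilobase of coding sequence. With it, Mrpl34, Mrpl24 and Mrpl52 were among the 10 highest members on all 3 scales, and Mrps33 alone was among the 10 lowest on all 3. Across the 76 genes the count per kilobase of merged exons fell with the length of those exons (Spearman's rho -0.71), 2 measures that both contain the length. The count itself rose only weakly with that length (rho 0.33). Both are across genes of the same libraries, which are not independent replicates.

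Overlap with other genes also bears on the counts. STAR counts a read only where it falls on a single gene, so that bases shared with another gene can lose reads. Which strand setting the authors counted with was not given in the sources used here. Of the 76 members, 32 (42.1%) shared exonic bases with another annotated gene, beside 36.8% of the listed protein-coding genes. In 17 members (22.4%, against 13%) the shared bases exceeded 10% of the exon length, and in 7 (9.21%, against 8.32%) some lay on the same strand. The largest overlap was that of Mrps34, where 77.76% of the exonic bases were shared with Nme3 or Mapk8ip3, and 36.97% with a gene on the same strand. Mrps25 followed with 69.80%, shared with Nr2c2 on the opposite strand. Mrpl19 shared 36.0% with Gcfc2, and Mrpl43 33.36% with Twnk, the helicase that unwinds mitochondrial DNA for replication. Mrps18b shared 30.54% and Mrps18c 23.23% with non-coding or unclassified transcripts, Mrpl24 26.34% with Rrnad1, Mrps27 24.18% with a non-coding transcript, and Mrpl47 24.17% with Actl6a or Ndufb5. In the other 8, which are Mrpl10, Mrpl12, Mrpl14, Mrpl18, Mrpl46, Mrps6, Mrps7 and Mrps24, the share lay between 10.09% and 19.90%. Mrpl46 overlapped another member, Mrps11. These 17 members had a median of 134.8 per kilobase and the 44 without overlap one of 73.93. Their median lengths of merged exons also differed, 1708 and 2897 bases, and undivided by length their median counts were 210.3 and 195.1. Whether overlap lost reads was not tested. Of the 5 annotated pseudogenes that match the naming rule, 0 are listed. Mrpl23 and Mrpl48 are the 2 members with a pseudogene named after them, and their counts are uncertain to the extent that reads match both copies.

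Around the ribosome, gene lists of mitochondrial translation and mitochondrial DNA upkeep had median levels between 36.77 and 89.06 per kilobase of merged exons, beside 75.58 for the members. A list of 5 mitochondrial ribosomal proteins with other names and Oxa1l, the insertase that binds the ribosome at the inner membrane, was complete. Its 6 genes had a median of 89.06 per kilobase, from 50.12 for Dap3, a GTP-binding protein of the small subunit, to 164.2 for Aurkaip1. The others were Chchd1 at 108.5, Oxa1l at 103.4, Ptcd3 at 74.71 and Gadd45gip1 at 57.80. Without Oxa1l, which is not a ribosomal protein, the middle value was the 74.71 of Ptcd3, close to the 75.58 of the members. Translation factors, 15 of 16 listed, had a median of 49.07, from 18.51 for Mtfmt, which formylates the initiator tRNA, to 286.4 for Lrpprc, which stabilizes mitochondrial mRNAs. Assembly and rRNA modification factors, 20 of 20, had one of 36.77, from Gtpbp10 at 16.37 to Ngrn at 126.2. Mitochondrial aminoacyl-tRNA synthetases, 17 of 17, had one of 42.14, from Pars2 at 8.943 to Lars2 at 166.3. Genes of mitochondrial DNA transcription and replication, 8 of 9, had one of 70.83, from Ssbp1 at 20.10 to Tfam, which packages mitochondrial DNA, at 119.5. Per kilobase of the principal transcript the list medians lay between 67.16 and 170.9, beside 130.6 for the members, and the mitochondrial DNA genes stood at 87.56. Undivided by length, the translation factors (269.7) and mitochondrial DNA genes (265.4) lay above the members (195.1), so that order was turned. The assembly factors (156.2) and synthetases (181.5) stayed below.

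By contrast, nuclear subunits of oxidative phosphorylation, 77 of 85 listed, had a median of 434.2 per kilobase, with the ATP synthase genes Atp5l at 14.09 and Atp5a1 at 3067 as the lowest and the highest. Cytosolic ribosomal proteins, 80 of 84 listed, had one of 410.1, from Rps10 at 7.948 to Rplp1 at 3011. Per kilobase of merged exons only Mrpl12 among the members lay above both medians, whereas per kilobase of the principal transcript, at 589.2, it lay below both, and so did every other member. Of the 13 proteins encoded in mitochondrial DNA, the products that this ribosome makes, 7 are listed, from 8701 for ND4 to 49493.8 for COX1, with a median of 24815.9. Many cytosolic ribosomal protein genes have processed pseudogenes that can take part of their reads, so their levels are uncertain. Per kilobase of the principal transcript the medians were 130.6 for the members, 790.7 for the oxidative phosphorylation subunits and 874.3 for the cytosolic ribosomal proteins, so that both groups again lay above the members but their own order was turned.

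**Figure D2:**
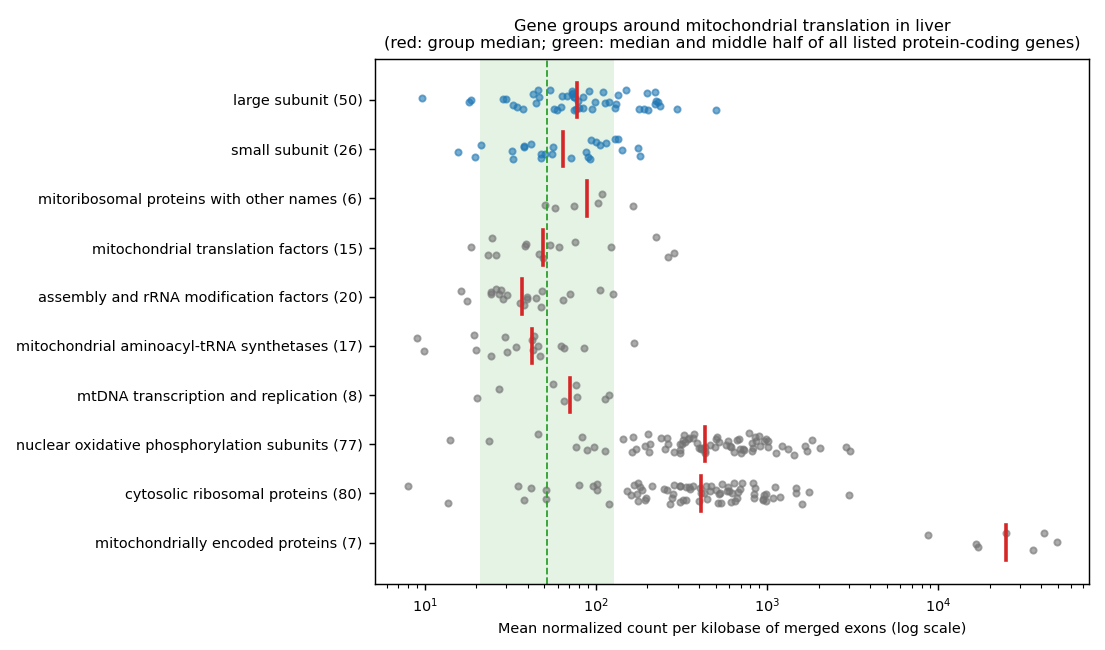
Authors' mean normalized count per kilobase of merged exons (log scale) of the genes of each group, 1 point a gene, with the number of listed genes in brackets and the group median as a red bar. The green band is the middle range between the lower and upper quartile of all listed protein-coding genes and the dashed line their median, 52.07, and the oxidative phosphorylation subunits (434.2) and cytosolic ribosomal proteins (410.1) lie to the right of both subunits (77.42 and 63.83).

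The tissue carried the markers of liver. The 6 hepatocyte markers were all listed, with a summed count of 1468712.6, of which albumin (Alb) gave 1217471.8. Markers of Kupffer cells (5 of 5 listed), endothelial cells (5 of 5) and stellate cells (5 of 5) summed to 4076, 4883 and 3987. Of the cholangiocyte markers 2 of 5 were listed, of T and NK cell markers 1 of 4, of B cell markers 1 of 3, of neutrophil markers 2 of 3, of erythroid markers 2 of 3, of adipocyte markers 1 of 2 and of muscle markers 0 of 3. Their sums were 192.6, 18.6, 50.1, 41.73, 392.1 and 21.34, with no sum for muscle. Since the members are expressed in every cell type, their levels belong to the whole tissue, and in bulk RNA fewer cells of a type and less RNA per cell cannot be told apart.

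The members share features of their promoters that were not used to choose them. The NRF1 motif was present, on either strand, in 7 of the 67 promoters (10.4%), beside 2.07% of all 27025 genes with a promoter and 4.43% of the 9156 listed protein-coding genes with a promoter. The ETS motif was present in 25 (37.3%), beside 9.93% and 20.3%. The YY1 motif was present in 8 (11.9%), beside 1.64% and 3.74%. At least 1 of the 3 motifs was present in 35 of the 67 promoters (52.2%), beside 12.8% and 26.3%. The 95% exact binomial intervals of the members' shares were 4.3% to 20.3% for NRF1, 25.8% to 50% for ETS and 5.3% to 22.2% for YY1. That of NRF1, which rests on 7 genes, held the 4.43% of the listed genes. These intervals cover counting error only. They are no test against the listed genes, because the members were chosen by name and are not independent draws. In the narrower window from 100 bases before the start the shares were 5.97% for NRF1 against 3.31% of the listed genes, 32.8% against 16% for ETS and 10.4% against 3.03% for YY1. Promoters with both ETS and NRF1 motifs were those of Mrpl17, Mrpl22 and Mrps18b, and those with both ETS and YY1 motifs were Mrps18a and Mrps27.

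Motifs of general promoters showed other shares. The SP1 motif GGGCGG was present in 33 (49.3%), beside 38.2% of all genes and 68.1% of the listed ones. The TATA box TATAAA was present in 5 (7.46%), beside 15.7% and 9.25%, and in the narrower window from 100 bases before the start in 1 (1.49%). The CCAAT box CCAAT was present in 25 (37.3%), beside 41.1% and 42.7%. None of the 6 motifs holds another. A match is a description of the letters in this window and shows no binding in these livers.

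**Figure D3:**
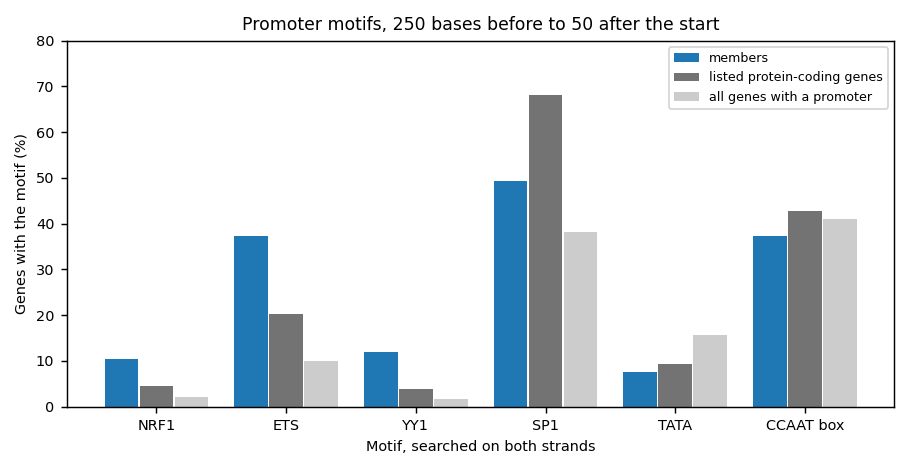
Share of genes (%, from 0) with each motif between 250 bases before and 50 bases after the RefSeq start, on either strand, in the 67 members with a promoter, the 9156 listed protein-coding genes with one and all 27025 genes with one. The NRF1, ETS and YY1 bars of the members (10.4%, 37.3% and 11.9%) stand above those of both other groups, and their SP1 bar (49.3%) stands below that of the listed genes (68.1%).

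The motifs also differed in place. Of the 29 ETS matches, 26 lay within 100 bases of the start, with a median centre at position -13.5 and 9 matches wholly after the start. The 8 NRF1 matches all lay before the start, with a median centre at -55, as in the windows of Mrpl10, Mrpl22 and Mrpl32 printed above. Of the 8 YY1 matches, 6 lay after the start, with a median centre at 23, and the windows of Mrpl36 and Mrps11 are the remaining 2. The levels of genes with and without a motif had no order that held on every length scale used. Per kilobase of merged exons the median was 74.21 with an ETS motif and 77.07 without, 87.89 with an NRF1 motif and 74.20 without, and 70.98 with a YY1 motif and 74.73 without. Per kilobase of the principal transcript it was 108.7 with an ETS motif and 147.3 without, 104.4 with an NRF1 motif and 130.6 without, and 190.7 with a YY1 motif and 108.7 without. For ETS the order turned per kilobase of coding sequence, with 291.4 with the motif and 282.3 without. Mrpl12 and Mrpl24, among the highest members, held none of the 6 motifs in this window.

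**Figure D4:**
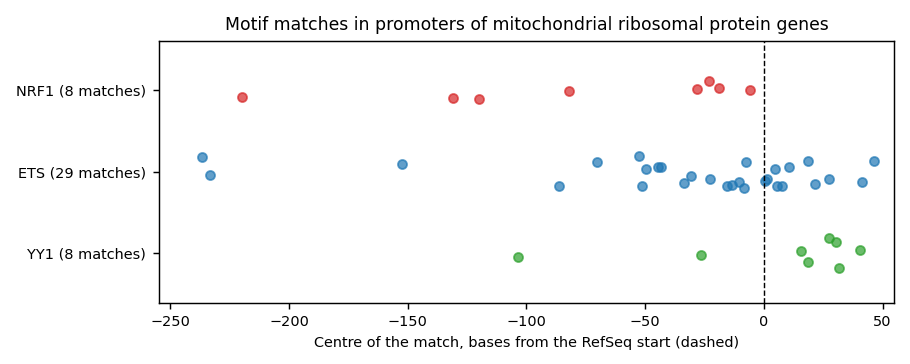
Centre of each motif match relative to the RefSeq start of the gene (bases, dashed line at the start), 1 point a match, spread vertically only for legibility. ETS matches gather around the start (median -13.5), NRF1 matches lie before it (median -55) and YY1 matches mostly after it (median 23).

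Many members face another gene across a shared promoter region. A protein-coding gene started on the opposite strand, within 1000 bases upstream of the member's start or overlapping it by up to 200 bases, for 23 of the 76 members (30.3%), beside 12.1% of the listed protein-coding genes. The median signed distance between the paired starts was 66 bases, with the 5 pairs whose starts overlap counted as negative. In 21 pairs the starts lay at most 200 bases apart. Among the partners, named here for what they do after the pairs were seen, several also act in mitochondria or in translation. Mrps12 faced Sars2, the mitochondrial seryl-tRNA synthetase, at 172 bases. Mrpl36 faced Ndufs6, a subunit of complex I, with starts overlapping by 29 bases (distance -29). Mrps27 faced Ptcd2, a mitochondrial RNA-binding protein, at 81 bases, and Mrpl49 faced Fau, which encodes a cytosolic ribosomal protein, at 59 bases. Others have no such role, such as Psma2 of the proteasome beside Mrpl32 at 75 bases and the histone chaperone gene Hira beside Mrpl40 at 175 bases.

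The members in such pairs had a median of 92.29 per kilobase of merged exons and the other 53 one of 71.58. Per kilobase of the principal transcript the order was turned, with 126.3 and 134.9. At least 1 of the NRF1, ETS and YY1 motifs was present in 12 of the 21 paired members with a promoter and in 23 of the 46 others. The members were scattered over 17 chromosomes, with at most 11 on a single chromosome, chromosome 11. That chromosome also held the most listed protein-coding genes, 918. None of the members lay on chromosomes 12, 18, X or Y.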

How the data were processed

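RNA was extracted from liver with TRIzol, depleted of rRNA and made into directional libraries (NEBNext Ultra II), and according to the methods the authors aligned single reads with STAR 2.5.3a, counted them on Ensembl genes and normalized them with DESeq2 (RLE). The authors' deposited liver table gives for each gene a mean normalized count, a signal per gene that pools the compared libraries. Its 5 other numeric columns hold the authors' log2 fold change, its standard error, the Wald statistic and the raw and adjusted p-values of the comparison of the LL35 ASO and Luc ASO livers. They are the authors' findings and were not used. The table holds 1 pooled value a gene and library depths are unknown, so no group test, interval or standard deviation of the levels was computed. The genome build of the authors' files was not given in the sources used here.

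Levels per kilobase were computed in Python 3.11.15 with pandas 2.3.3 and numpy 2.4.6, from merged exons of GENCODE M21 (GRCm38), which held 11754 of the 11779 listed identifiers and lengths for 11385 of 11396 protein-coding genes. Promoters came from RefSeq (GRCm38.p6), and each motif was searched on both strands. Where a gene had several promoters it was counted once, as holding a motif if any of them did. Pathway lists were fixed by symbol, and kinases were left out of the cytosolic ribosomal proteins. The subunit and origin of each member follow present structural nomenclature. Scripts were tested on simulated data. Members and lists were chosen with earlier results of these data known. Genes were named mainly by a rule. It took the 6 highest and 6 lowest per kilobase of merged exons in each subunit, and the Mrps18 paralogs. It also took 12 genes with a known further role or a changed assignment, of which Mrps36 is not listed. The rest were members with over 10% exon overlap, mitoribosomal proteins with other names, and the highest and lowest gene of each list. Further genes were named outside the rule for a promoter motif, a neighbouring gene or a rank on the length scales. Alternatives were other lengths, a minimum count of 50, geometric means, exclusion of overlapping genes and a narrower promoter window.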

Additional observations from a re-analysis of the deposited data

How the results depend on the processing

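Of 29 alternatives computed, 3 moved a value by over 1.5 times or, for a motif share, out of its 95% exact binomial interval, and 0 turned a ratio around. The median level of the members per kilobase, 75.6 with merged exons, was 290 with coding length and 131 with the principal transcript, an alternative chosen after seeing the data. The median over all protein-coding genes rose with it, so levels may be compared only on the same length. The share of members with a TATA box fell from 7.46% to 1.49% in the window from 100 bases before the start, by construction a shorter window. The NRF1 share fell from 10.4% to 5.97% there, over 1.5 times lower but within its interval of 4.3% to 20.3%. The percentile of the members lay between 55.5 and 65.3 on every scale divided by length and at 44.3 undivided. The ratio of large to small subunit lay between 1.05 and 1.41, and that of bacterial-type to mitochondria-specific members between 1.09 and 1.58. The undivided count was not among the alternatives for these ratios. Its medians were 191.3 for bacterial-type and 198.4 for mitochondria-specific members, the opposite order. No paired analysis was possible because the table holds no values of single mice, so no replicate could be left out either. Depth is unknown, so the counting error of low genes such as Mrps33 cannot be given.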
